A study of Mus musculus with 18 samples.

Results

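The genes described here are the small nucleolar RNA (snoRNA) and small Cajal body RNA (scaRNA) genes detected in mouse embryonic fibroblasts (MEFs) given the pyrimidine base uracil. A gene was taken when its Ensembl identifier has the GENCODE M39 biotype snoRNA or scaRNA and when its mean over all 18 libraries was at least 1 CPM (counts of the gene scaled to the gene counts of the library). Of 55487 genes in the table, 1099 have one of these biotypes. Of these 1099, 842 were at 0 counts in every library and 185 had counts but stayed below the threshold, which left 72 genes. By biotype, 63 are snoRNAs and 9 are scaRNAs. By symbol, 12 are named as box C/D RNAs (Snord), 13 as box H/ACA RNAs (Snora) and 5 as Cajal body RNAs (Scarna), while 42 carry other symbols, most of them Gm numbers, that give no class. The mean level over the libraries chose these genes, so their being detected is not a result. Just inside the threshold were Gm22270, at a mean of 1.05 CPM, and Scarna9, at 1.03 CPM, and just outside it were Gm23751, at 0.992 CPM, and Gm25777, at 0.890 CPM.

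The study grew MEFs in full growth medium (DMEM with 10% fetal bovine serum, glutamine and antibiotics), to which 0, 10 or 30 µM uracil was added for 24 h. Each dose has 6 libraries, numbered 1 to 6, so that every number occurs once at each dose. RNA was taken in Trizol and made into stranded total RNA libraries with removal of ribosomal RNA. The study's methods call the libraries of a dose biological replicates. Strain, sex and embryonic age of the cells, and whether libraries that share a number also share an isolation or a day, are not given in the sources used here.

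As background, box C/D snoRNAs pair with ribosomal RNA and guide fibrillarin to methylate a ribose, while box H/ACA snoRNAs guide dyskerin to turn a uridine into pseudouridine. A few, such as Snora73 (U17) and Snord118 (U8), act instead in the cleavage of the ribosomal RNA precursor, and scaRNAs guide the same modifications on spliceosomal small nuclear RNAs in Cajal bodies. Most mammalian snoRNAs are cut out of introns of protein-coding or non-coding host genes, so a read in such a gene can come from the mature small RNA or from the unspliced host.

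Gene counts ran from 3963932 to 20775298 per library. In 15 libraries between 1.72% and 3.59% of read pairs did not align. The other 3 libraries were control number 1 with 54.2% unaligned, 30 µM number 6 with 37.9% and 10 µM number 6 with 5.24%. The study's methods state that 1 control and 1 30 µM sample were left out for human RNA, but the labels do not name them and all 18 libraries are used here, with results also given without these 3. Of the fibroblast markers, Col1a1 (from 6044 to 32697 CPM) and Vim (from 4768 to 6177 CPM) were high in all libraries. Pdgfra (23.9 to 56.5 CPM), Thy1 (38.7 to 56.4 CPM) and Dcn (40.5 to 224 CPM) were lower. The endothelial marker Pecam1 reached at most 0.291 CPM, the leukocyte marker Ptprc 0.269 CPM and the epithelial marker Epcam 1.69 CPM, and the muscle marker Myod1 was at 0. Other endothelial, epithelial and leukocyte markers were higher. Kdr lay between 4.85 and 8.31 CPM, Krt8 between 1.07 and 14.6 CPM, Cdh1 reached 3.37 CPM and Cd68 1.40 CPM.

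The sequences below carry the main patterns. Snora73a, Snora73b and Gm26448 are shown because they are the 3 highest genes and share most of their bases, Snora57 for its departure in 1 control library, Snord17 as the highest box C/D RNA, and Scarna10 for its spread over replicate numbers. They are RNA-strand sequences from GENCODE M39, written 5′ to 3′ as DNA. Capitals mark letters found by a search of that strand alone: TGATGA within the first 25 bases (C box), CTGA within the last 25 bases (D box), ANANNA nearest to the middle, between 35% and 65% of the length (H box), and ACA within the last 8 bases.
Snora73a: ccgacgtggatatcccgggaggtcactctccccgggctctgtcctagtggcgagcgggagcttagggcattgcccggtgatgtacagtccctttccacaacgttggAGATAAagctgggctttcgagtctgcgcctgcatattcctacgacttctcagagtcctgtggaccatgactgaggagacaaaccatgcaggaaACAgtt
Snora73b: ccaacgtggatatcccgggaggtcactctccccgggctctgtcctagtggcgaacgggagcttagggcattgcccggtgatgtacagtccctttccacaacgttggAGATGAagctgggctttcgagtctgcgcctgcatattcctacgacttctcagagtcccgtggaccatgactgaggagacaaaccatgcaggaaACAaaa
Gm26448: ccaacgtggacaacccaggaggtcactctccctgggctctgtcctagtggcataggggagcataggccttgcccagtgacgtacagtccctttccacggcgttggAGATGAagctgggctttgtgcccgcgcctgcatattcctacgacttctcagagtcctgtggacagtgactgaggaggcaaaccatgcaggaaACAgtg
Snora57: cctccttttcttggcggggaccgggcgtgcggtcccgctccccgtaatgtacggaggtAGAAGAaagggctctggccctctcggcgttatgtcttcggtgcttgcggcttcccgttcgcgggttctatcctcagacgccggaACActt
Snord17: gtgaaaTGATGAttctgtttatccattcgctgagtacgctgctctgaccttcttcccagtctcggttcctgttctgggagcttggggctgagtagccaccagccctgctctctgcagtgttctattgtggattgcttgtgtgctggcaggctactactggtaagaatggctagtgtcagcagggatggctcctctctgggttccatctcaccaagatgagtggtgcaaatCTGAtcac
Scarna10 (bases 1 to 160): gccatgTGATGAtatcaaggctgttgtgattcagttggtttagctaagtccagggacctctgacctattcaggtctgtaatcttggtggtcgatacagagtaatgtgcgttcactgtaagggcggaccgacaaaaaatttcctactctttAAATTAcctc

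On GRCm39, Snora73a lies at chr4:132080086-132080290 and Snora73b at chr4:132079633-132079837, both on the minus strand within Rcc1, a gene for a chromatin-bound exchange factor of the GTPase Ran, and within the non-coding gene Snhg3. Gm26448 lies at chr9:119958417-119958619 on the plus strand in an intron of Rpsa, which encodes a protein of the small ribosomal subunit. Snora57 is at chr19:8865902-8866049, Snord17 at chr2:144107899-144108136 in an intron of Snx5, a sorting nexin gene, and Scarna10 at chr6:125163322-125163646 in Ncapd2, a condensin subunit gene, all on the minus strand. Scarna10 (U85) holds C box letters from base 7, H box letters from base 151 and, beyond the printed stretch, D box letters from base 317, in a single RNA of 325 bases. The build on which the reads were counted is not given for certain in the sources used here, and these positions are those of GRCm39 with GENCODE M39.

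Snora73a and Snora73b are identical at 198 of 205 aligned bases (96.6%). Gm26448, which has no Snora symbol, is identical to Snora73a at 182 of 206 aligned columns (88.3%) and to Snora73b at 87.8%. Over 1082 pairs of the 72 genes with similar length, 12 pairs were at least 70% identical. Gm22154 and Gm25788, both in introns of the poly(A)-binding protein gene Pabpc4, and Gm24620, in Kif13a, were between 94.7% and 97.7% identical. Gm23442 in Prrc2a and Gm23105 in Pawr matched at 94.8%, and Gm24233 in Mia2 and Gm22786 in Psmd1 at 97.5%. None of the 72 has an identical copy among the 1099 genes of these biotypes in the table. Annotated genes absent from the table were not compared. Reads that fall wholly in shared stretches could have been left out or split by the counting. The single levels of these relatives are therefore less certain than those of the other genes.

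The box letters were more frequent in the detected genes than in all 1099 annotated genes in the table. C and D letters occurred together in 20 of 72 (27.8%, against 10.3% of the 1099), and H and ACA letters together in 42 of 72 (58.3%, against 44.7%). Among named genes, 9 of 12 Snord genes held C and D letters and 12 of 13 Snora genes held H and ACA letters, and 4 of 5 Scarna genes held C and D letters. Of the 42 genes with other symbols, 30 held H and ACA letters, 7 held C and D letters, 1 of these held both pairs and 6 held neither. The genes are 70 to 414 bases long with a median of 134, and 80.6% are 120 bases or longer, against 71.9% of all 1099.

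The 72 genes together held a mean of 0.204% of the gene counts of a library, and the 5 highest held 55.3% of their summed level. Per length and averaged over the libraries, Snora73a was highest, at 2319 CPM per kb, followed by Snora73b at 958 and Gm26448 at 944 CPM per kb. Snord17, at 628 CPM per kb, Gm22442, in the chromatin remodeller gene Chd3, at 558 and Snora78, at 525, came next. Scarna2, a guide RNA for the U2 small nuclear RNA, was the densest Scarna gene, at 281 CPM per kb. At the other end, 27 of the 72 stayed under 3 CPM, with Gm23547, in Phb2, at 7.59 CPM per kb. In total RNA from a culture, fewer cells of a type and less RNA per cell cannot be told apart, and a level counts reads, not molecules.

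Nearly all of these genes lie inside another gene. A same-strand gene spans 71 of the 72, of which 58 lie in protein-coding and 13 in long non-coding hosts, and the exception is Gm24598. There are 60 hosts, 11 of which hold 2 of the genes. Of the 72 genes, 12 lie in genes for ribosomal proteins and 4 in genes for translation factors. For 63 of the genes the host is itself in the table, 31 of the 72 overlap an annotated exon of a host, and 14 have a gene on the opposite strand.

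The question for these 63 is how their reads compare with those of the gene around them. Per kb, 41 of the 63 were denser in reads than the exons of their host and 22 were less dense, with a median ratio of 1.38. The length of a host takes all its annotated exons together. For a host with several transcripts this can exceed the length of 1 transcript, which lowers the host's density and raises the ratio. The ratio was above 10 for 14 genes. Snora73a had 2319 CPM per kb where Rcc1 had 13.7, a ratio of 170, and Snora73b had 70.1 times the density of Rcc1. Rcc1 was taken as host by its counts, and Snhg3 also spans both genes, so these are not ratios to Snhg3. Whether a small RNA is cut from the gene that spans it was not tested for any of the 63. Snord118, a box C/D RNA that acts in cleavage of the large-subunit precursor, had 61.6 times the density of Tmem107, and Gm25395 and Scarna6, both in the autophagy gene Atg16l1, had 80.9 and 54.5 times that of their host. Snora78 had the highest ratio, at 1881, but it overlaps an exon of Snhg9, and a counter can withhold reads from overlapping genes, so the level of 0.279 CPM per kb of Snhg9 is uncertain. Among the 40 genes that overlap no host exon, 27 were denser than their host and the median ratio was 2.16, and among the 23 that overlap one, 14 were denser and the median was 1.27.

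Genes in ribosomal protein hosts had few reads for the level of their host. Of these 12, 11 were less dense than the host, with a median ratio of 0.129. The lowest was Snora62, at 16.5 CPM per kb in an intron of Rpsa, which had 311 CPM per kb, a ratio of 0.0530. Its neighbour in the same host, Gm26448, was the exception among the 12, with 3.03 times the density of Rpsa. That density takes 4535 bases for Rpsa, all its annotated exons together, and over a shorter transcript it would be higher. AF357399, in Rps16, had a ratio of 0.0534. Reads of the mature RNA and of host introns were not separated in the table, so the part of each in these values was not tested.

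**Figure D1:**
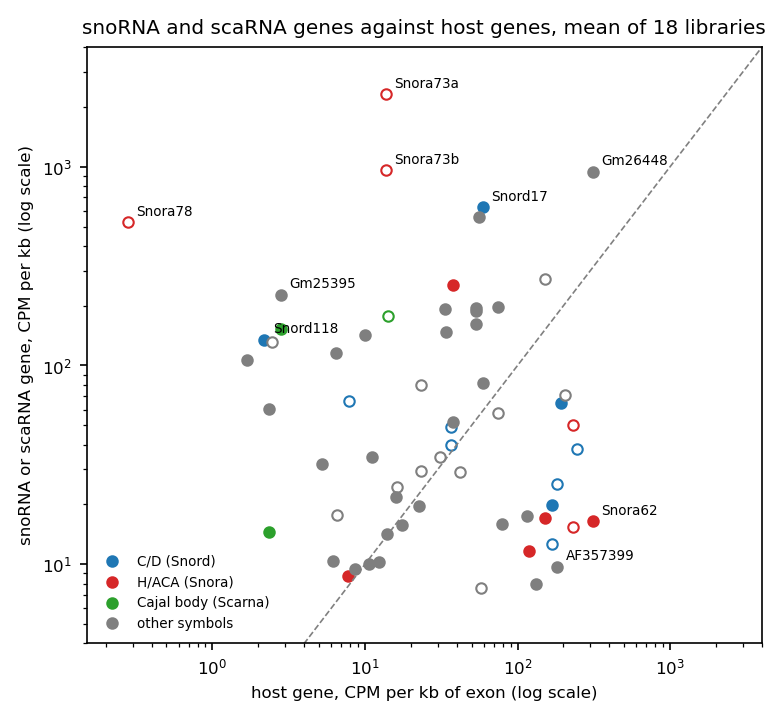
Mean level per kb over 18 libraries of the 63 snoRNA and scaRNA genes whose host is in the table (vertical axis, log scale) against that of the host's exons (horizontal axis, log scale), coloured by class, with open symbols for genes that overlap a host exon and a dashed line where both are equal. Of the 63, 41 lie above the line, Snora73a farthest up at 2319 CPM per kb and Snora62 among those far to the right of the line at 16.5 CPM per kb.

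The libraries with many unaligned reads stood apart in these genes. Control number 1 was above all 15 other libraries for 44 of the 72 genes, against 31.6% of all 13865 genes tested, and below all of them for 9, against 31.9%. Its median ratio to the median of the 15 was 1.83 for the 72 genes and 0.988 over all genes. The departure differed by class. It was above the 15 for 10 of 12 Snord genes and 11 of 13 Snora genes, with median ratios of 2.66 and 2.26, and for 23 of 42 genes with other symbols, of which 6 were below, with a median ratio of 1.58. It was above for 0 of 5 Scarna genes, of which 3 were below the 15, with a median ratio of 0.689. Among the 53 host genes tested, it was above for 15 and below for 26.

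Snora57, an H/ACA guide for the small ribosomal subunit, was at 186.9 CPM in control number 1 and between 24.5 and 45.9 CPM in the 15 libraries, 5.81 times their median. Gm23262, in the translation factor gene Eif4g2, was at 45.5 CPM there against 3.73 to 11.50 CPM. Snord13, which guides acetylation of the small-subunit RNA, was at 25.01 CPM against 3.96 to 8.16 CPM. Scarna2 went the other way, at 39.8 CPM against 111.7 to 142.4 CPM. These 4 genes show the range of the departure, up for both classes of snoRNA and down for the most abundant scaRNA. Snora57 was picked for its departure.

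The 30 µM library number 6 departed in another way. It was below the 15 other libraries for 41 of the 72 genes, against 31% of all genes, and above them for 8, against 30.5%, with a median ratio of 0.652. Of the genes with other symbols 32 of 42 were below, whereas 5 of 12 Snord genes were above. Snord17 was at 273.5 CPM there against 109.3 to 224.4 CPM in the 15, and Snora73b was at 296.8 CPM against 132.5 to 280.8 CPM. Snora73a, in the same host as Snora73b, was at 278.0 CPM against 427.6 to 569.3 CPM. The 10 µM library number 6 was above the 15 for 0 of the 72, against 21.7% of all genes, and below for 26, against 17.3%, with a median ratio of 0.822. The part that unaligned reads, depth or foreign RNA have in these departures was not tested.

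Over all 18 libraries the coefficient of variation of these genes had a median of 31.6%, and over the 15 it was 19.6%. For all genes tested it was 14.7% and 9.60%, and over the 15 it was 5.46% for the hosts. These sets were not matched for level, and 27 of the 72 were under 3 CPM. The part of counting error in these values was not tested. The steadiest over the 15 were Snora73a, at 7.65%, and Scarna2, at 7.71%. Among these 15, control number 6 was the highest library for 30 of the 72 genes, against 8.78% of all genes.

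**Figure D2:**
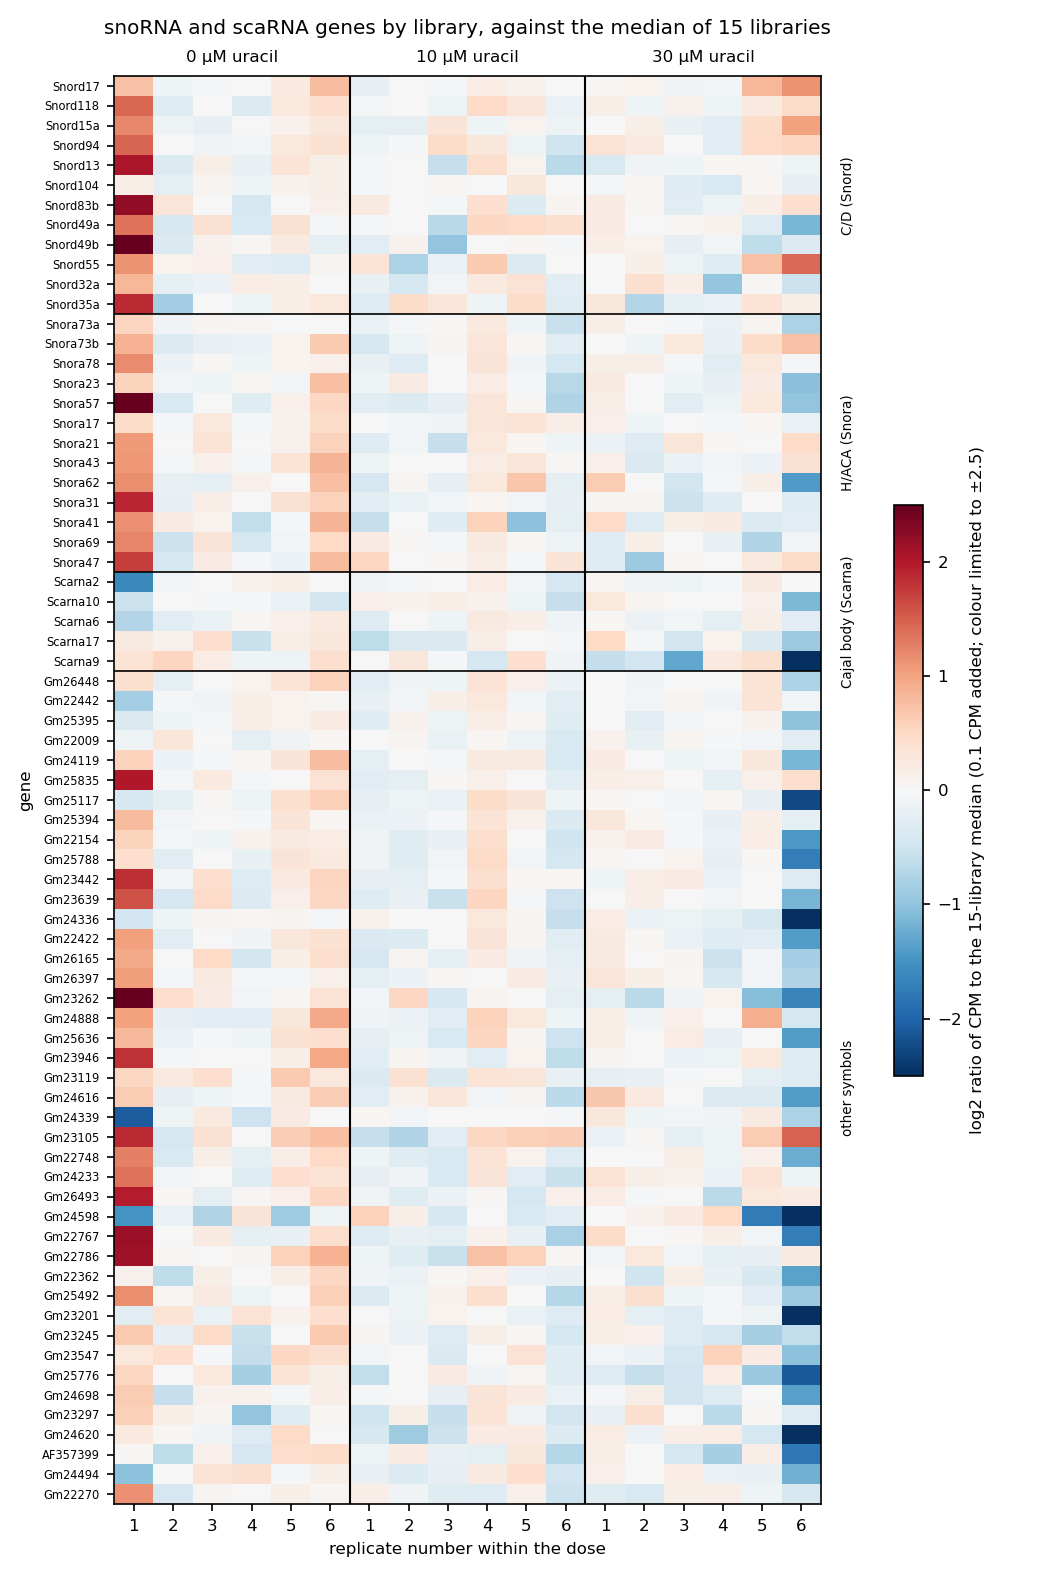
Level of each of the 72 genes (vertical axis, grouped by class) in each of the 18 libraries (horizontal axis, by dose and replicate number), as the log2 ratio of its CPM to its median over the 15 libraries with few unaligned reads, with 0.1 CPM added to both and colours limited to ±2.5. Control number 1 is red for most Snord and Snora genes and blue for Scarna2, and 30 µM number 6 is blue for most genes with other symbols.

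The study used these libraries to ask whether uracil altered transcript levels of fibronectin and of its integrin receptor in fibroblasts, and the same comparison of doses is made here for the snoRNA and scaRNA genes. Of the 72 genes, 0 passed an adjusted p of 0.05 in any comparison of doses (edgeR quasi-likelihood test, Benjamini-Hochberg adjustment over 13865 genes), as did 0% of all genes in each. With all 18 libraries most of the 72 were lower with uracil: 64 of 72 at 10 µM, with a median log2 fold change of -0.26, and 63 of 72 at 30 µM, with a median of -0.27, where 47.3% and 46.5% of all genes were lower. Both comparisons share the control libraries, control number 1 among them. Between 30 and 10 µM, 41 of 72 were lower, with a median of -0.02, and 47.9% of all genes were.

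Without the 3 libraries with most unaligned reads these differences were smaller. The median was -0.08 at both doses, with 54 of 72 genes lower at 10 µM and 53 at 30 µM, where 49% and 48.8% of all genes were lower, and it was 0.01 between the doses, with 32 lower, where 47.6% of all genes were. By class, all 13 Snora genes were lower at 10 µM with 18 libraries and 9 without the 3, and 11 of 12 Snord genes were lower with 18 and 4 without the 3. Of the 42 genes with other symbols, 38 were lower in both, with medians of -0.26 and -0.13. At 30 µM, 12 Snora genes were lower with 18 libraries and 9 without the 3, 9 and 6 Snord genes were, and 39 and 34 of the genes with other symbols, with medians of -0.30 and -0.12. Of the 5 Scarna genes, 2 were lower at 10 µM with 18 libraries and 3 without the 3, and 3 and 4 were at 30 µM. Adding the removal of control number 6, which was chosen after seeing the data, left 41 of 72 lower at 10 µM and 42 at 30 µM, with medians of -0.02 and -0.01, where 50% and 49.7% of all genes were lower.

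**Figure D3:**
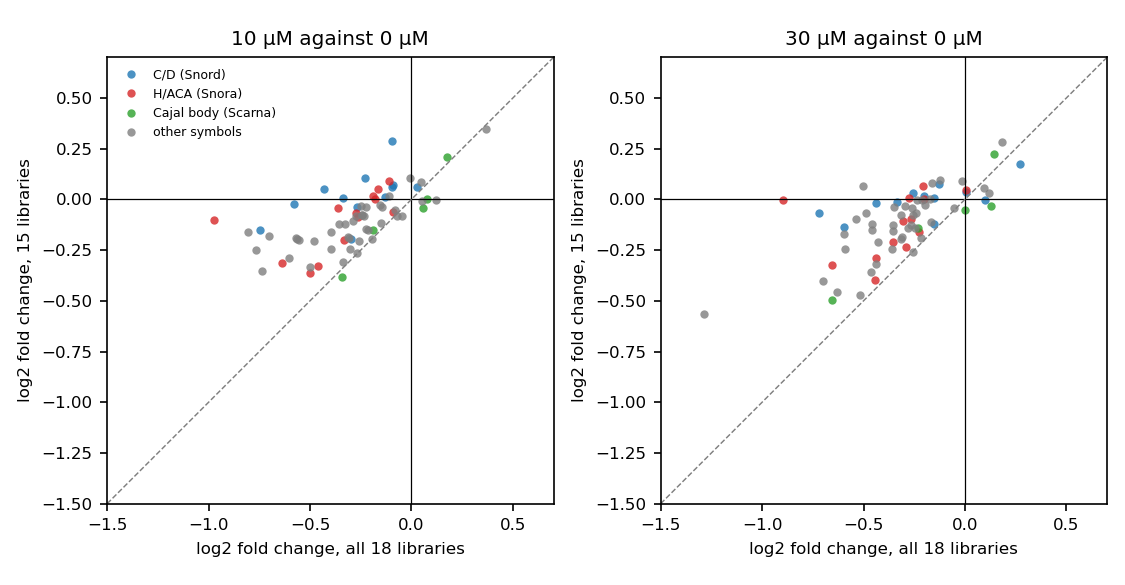
Log2 fold change of each of the 72 genes with all 18 libraries (horizontal axis) and without the 3 libraries with most unaligned reads (vertical axis), for 10 µM (left) and 30 µM (right) against control, coloured by class, with a dashed line where both are equal. The cloud is centred near -0.26 on the horizontal and near -0.08 on the vertical axis.

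An unadjusted p under 0.05 was reached at 10 µM by 8 of the 72, all lower, where 0.692% of all genes reached it in either direction and 0.317% as lower, and at 30 µM by 10, all lower, where 4.28% of all genes did and 2.3% as lower. Leaving out the 3 libraries gave 1, which was higher (4.54% of all genes), and 4, of which 3 were lower (4.21%). Between 30 and 10 µM it was 0 of 72 (2.33%), and for any difference among the 3 doses 4 of 72 (1.53%), and with 15 libraries 1 (1.84%) and 3 (2.74%). The counts at 10 and 30 µM were 1 and 2 when control number 1 alone was left out, where 0.637% and 2.48% of all genes reached it. DESeq2 gave 14, 16 and 0 for the 3 contrasts, where it gave 0.656%, 4.43% and 2.72% of all genes, and called 0 as well.

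The 3 smallest p-values at 30 µM belonged to Gm23119, Gm23262 and Snora43. Gm23119 lay between 4.51 and 7.32 CPM (median 5.95) in control, between 3.58 and 6.09 CPM (median 4.90) at 10 µM and between 3.71 and 4.64 CPM (median 4.04) at 30 µM. At 30 µM, 4 of the 6 libraries lay below the lowest control library and the other 2 lay in the lowest part of the control range. Its log2 fold change was -0.52 ± 0.16 (SE) at 30 µM, with an adjusted p of 0.931, and -0.47 ± 0.17 without the 3 libraries.

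Gm23262 lay between 7.58 and 45.5 CPM (median 9.73) in control, between 6.00 and 11.50 CPM (median 7.79) at 10 µM and between 2.47 and 8.44 CPM (median 5.83) at 30 µM. Its log2 fold change at 30 µM was -1.29 ± 0.41, and it was -0.57 ± 0.20 without the 3 libraries, when the control mean was 9.24 ± 1.36 CPM (SD, n = 5) and the 30 µM mean 6.26 ± 1.90 CPM (SD, n = 5). The ranges overlapped with and without the 3 libraries. Snora43, one of the pair in Snhg7, had medians of 6.38, 5.49 and 4.99 CPM over the rising doses and a log2 fold change of -0.45 ± 0.18 at 30 µM. With 15 libraries it was -0.40 ± 0.16, and without control number 6 as well -0.23 ± 0.13. None of the 3 passed the adjusted threshold with or without those libraries.

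At 10 µM the smallest p-values were those of Gm23946, in the mitochondrial import gene Timm23, Snora21, in the ribosomal protein gene Rpl23, and Gm25835, in the helicase gene Eif4a1. Gm23946 lay between 4.85 and 17.8 CPM (median 5.32) in control and between 3.19 and 5.30 CPM (median 4.46) at 10 µM, and its log2 fold change was -0.74 ± 0.26, or -0.35 ± 0.17 without the 3 libraries and -0.12 ± 0.12 without control number 6 as well. Snora21 differed by -0.46 ± 0.19, or by -0.33 ± 0.16 without them. Gm25835 differed by -0.70 ± 0.29, with a control range of 31.8 to 131.5 CPM whose upper end is control number 1, by -0.18 ± 0.10 without the 3 libraries and by -0.11 ± 0.10 without control number 6 as well. The 2 dose groups overlapped for each of these genes.

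Between 30 and 10 µM the smallest p-values were those of Snord17 (log2 fold change 0.40 ± 0.21, or 0.19 ± 0.20 without the 3 libraries), Snord104 (-0.18 ± 0.10 in both) and Gm25776 (-0.40 ± 0.27, or -0.31 ± 0.25). None passed the adjusted threshold, and the ranges of the doses overlapped for each.

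Of the most abundant genes, none passed the adjusted threshold between doses. Snora73a lay between 455.8 and 699.8 CPM (median 486.0) in control, between 327.9 and 569.3 CPM (median 461.5) at 10 µM and between 278.0 and 535.0 CPM (median 477.6) at 30 µM. With 15 libraries its means were 482.6 ± 18.9, 483.5 ± 53.5 and 484.2 ± 39.6 CPM (SD, n = 5 each), and its log2 fold changes were 0.00 ± 0.07 at both doses. Snora73b lay between 139.7 and 324.9 CPM (median 173.9), between 132.5 and 218.8 CPM (median 172.4) and between 156.9 and 296.8 CPM (median 195.7). For Snora73a the stretch shared by all 3 doses ran from 455.8 to 535.0 CPM and for Snora73b from 156.9 to 218.8 CPM, and in each case 11 of the 18 libraries lay within it. Snora78 had medians of 65.8, 57.5 and 66.1 CPM and Snora23, in the importin gene Ipo7, of 45.5, 45.2 and 44.3 CPM.

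Among the C/D RNAs, Snord17 had medians of 136.8, 125.0 and 131.6 CPM over the rising doses. Snord118 had medians of 17.3, 15.6 and 17.1 CPM, Snord13 of 6.62, 5.92 and 5.57 CPM, Snord15a, in Rps3, of 8.81, 7.82 and 8.95 CPM, and Snord94, in Ptcd3, of 8.44, 7.26 and 9.45 CPM. For each of them the doses overlapped, and the highest control library was control number 1 in all but Snord17.

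Among the Cajal body RNAs, Scarna2 had medians of 122.3, 116.7 and 119.8 CPM, and Scarna6 of 40.5, 41.1 and 39.3 CPM. Scarna17 was low, with medians of 2.10, 1.61 and 1.61 CPM. Scarna10 lay between 42.2 and 60.9 CPM (median 57.1) in control, between 40.9 and 68.5 CPM (median 66.2) at 10 µM and between 28.0 and 73.8 CPM (median 63.0) at 30 µM, with a log2 fold change of 0.14 ± 0.18 at 30 µM. With 15 libraries it was the only one of the 72 whose 30 µM libraries (61.0 to 73.8 CPM) did not overlap the control libraries (44.9 to 60.9 CPM), which held for 0.519% of all genes. Its log2 fold change was then 0.22 ± 0.08, with an adjusted p of 0.936, and without control number 6 as well it was 0.15 ± 0.07.

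Of the genes with other symbols, Gm26448 had medians of 213.9, 171.7 and 183.0 CPM, Gm22442 of 81.0, 77.8 and 79.8 CPM, Gm25395 of 66.2, 63.3 and 63.3 CPM, and Gm22009, in the importin gene Kpna4, of 49.5, 48.5 and 48.9 CPM. The doses overlapped for each.

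In sum over the 72 genes, the share of gene counts was 0.224% ± 0.0398 in control, 0.194% ± 0.0293 at 10 µM and 0.195% ± 0.0279 at 30 µM (SD, n = 6 each). With 15 libraries it was 0.211% ± 0.0269, 0.202% ± 0.0235 and 0.205% ± 0.0181 (SD, n = 5 each), and the doses then differed by less than the SD of any of them. With 18 libraries the control mean exceeded the others by about the size of their SDs, and the ranges of the 3 doses overlapped. The Snora genes held the most in control, 0.0955% ± 0.0234, followed by the genes with other symbols at 0.0843% ± 0.0143, the Snord genes at 0.0230% ± 0.00725 and the Scarna genes at 0.0209% ± 0.00527. Without control number 1 these were 0.0866% ± 0.0100, 0.0804% ± 0.0120, 0.0207% ± 0.00495 and 0.0231% ± 0.00117 (SD, n = 5). Median lengths were 138, 134, 92 and 265 bases in the same order of classes, and the part of length in these shares was not tested.

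**Figure D4:**
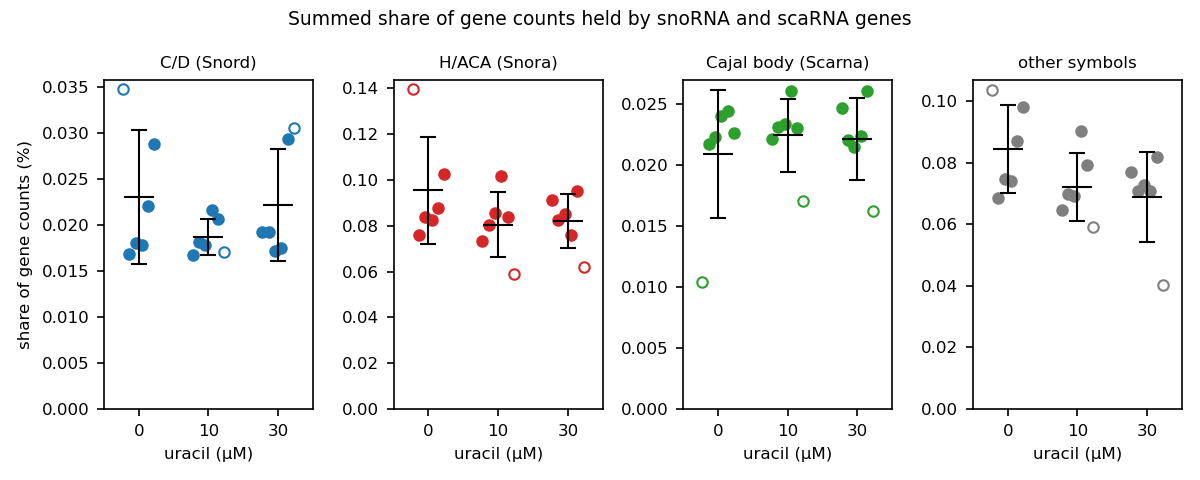
Share of all gene counts held by the snoRNA and scaRNA genes of each class (vertical axis, %) in the 6 libraries of each dose (horizontal axis, µM uracil), with points for libraries, open points for the 3 libraries with most unaligned reads, and bars for mean and SD. The open control point is the highest for Snord and Snora genes (0.0348% and 0.140%) and the lowest for Scarna genes (0.0104%).

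With all 18 libraries, the lean towards lower levels was not seen in the host genes. Of the 53 hosts tested, 0 passed the adjusted threshold in any comparison of doses. Their median log2 fold changes were 0.02 at 10 µM and 0.01 at 30 µM, where the 63 genes inside them had -0.26 and -0.28. Control number 1 enters both comparisons. It was above the 15 other libraries for 44 of the 72 genes and below for 9, but above for 15 hosts and below for 26. Without the 3 libraries with most unaligned reads the lean of the 72 genes was smaller, and host medians are not given here. The part of these libraries in the contrast with the hosts was not tested. An unadjusted p under 0.05 was reached by 0 hosts at 10 µM, where 0.692% of all genes did. At 30 µM it was reached by 2 of the 53, Kpna4 and Gtf2a1, where 4.28% of all genes did. Rcc1 had medians of 79.7, 78.3 and 82.0 CPM, Rpsa of 1401, 1434 and 1425 CPM and Snx5 of 287.4, 289.0 and 291.1 CPM over the rising doses. With 11 hosts tied at 2 genes each, these were named for the summed level of those genes, a choice made after values were seen.

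The proteins of the particles were read from a list of 27 genes for core proteins, assembly factors and processing enzymes. Of the 27, 0 passed the adjusted threshold in any comparison of doses and 0 reached an unadjusted p under 0.05. Of all genes, 0.692% reached it at 10 µM, 4.28% at 30 µM, 2.33% between these doses and 1.53% for any difference. Fbl, the fibrillarin methylase gene, had medians of 80.3, 77.7 and 76.98 CPM, Dkc1, the dyskerin pseudouridine synthase gene, of 80.4, 81.4 and 79.4 CPM, Nop58, a core protein of C/D particles, of 163.6, 164.0 and 156.7 CPM, and Coil, the coilin gene of Cajal bodies, of 14.4, 14.8 and 14.5 CPM. The ranges of the 3 doses overlapped for all 4.

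Between replicate numbers the table as a whole differed, with 12.6% of all genes past an adjusted p of 0.05 in a model with dose and number. Of the 72 genes, 0 passed, and 2 reached an unadjusted p under 0.05, against 26.4% of all genes. These were Scarna10, with an adjusted p of 0.0590, and Snora73a, with an adjusted p of 0.164. Of the hosts, 3 of 53 passed (Pawr, Slc25a3 and Rpl39), and of the 27 protein genes 1 passed, Fbl, with an adjusted p of 0.0273. Leaving out 1 library at a time gave Fbl adjusted p-values from 0.00572 to 0.0677, and its call was lost in 8 of the 18 fits, those without 10 µM numbers 1, 2, 3, 4 or 6, 30 µM numbers 3 or 5, or control number 5. Rpl39, a ribosomal protein gene, lost its call in 1 of the 18, without 10 µM number 6 (adjusted p = 0.0607), while Pawr and Slc25a3 passed in all 18.

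Without the 3 libraries, 8 of the 72 passed, against 20.7% of all genes: Gm23946, Gm24119, Gm24888, Gm26448, Gm23105, Snora23, Scarna10 and Snora43. Number 6 was then a single library, control number 6, which is assumed to vary like the others. For 7 of the 8 that library was the highest of the 15, and for Scarna10 it was the lowest. Without it as well, 3 of the 72 passed, Gm23105, Gm26448 and Gm24888, against 20.7% of all genes.

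Scarna10 had means of 61.1 ± 16.7, 64.0 ± 2.85, 63.2 ± 4.62, 62.4 ± 3.17, 59.0 ± 6.78 and 37.9 ± 8.83 CPM (SD, n = 3 each) in numbers 1 to 6. Number 6 was the lowest at every dose, except that control number 1 was lower than control number 6. The level of Ncapd2, its host, was 122.6 ± 15.6 CPM in number 6 and between 107.4 and 112.4 CPM in the means of the other numbers. Scarna10 passed the adjusted threshold without control number 1 (2 of the 72, with Gm23105, against 25% of all genes) and without 30 µM number 1 (1 of the 72, against 10.7%). It also passed without control number 6, with Snora23, Snora73a, Gm25395 and Gm24119 (5 of the 72, against 23.7%). It did not pass when all 4 libraries that stand apart were left out.

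Gm23105, an intronic gene of Pawr, which encodes an apoptosis regulator, was at 2.64 ± 0.769, 3.34 ± 0.949, 3.79 ± 0.966 and 5.24 ± 0.0679 CPM (SD, n = 3 each) in numbers 2 to 5. With 15 libraries it was at 2.64 CPM in number 1 (n = 2) and at 5.80 CPM in number 6 (n = 1). Numbers 1 to 3 were low and numbers 5 and 6 high, as they were for its host. Pawr had means of 37.3 ± 3.41, 33.9 ± 1.18, 33.3 ± 2.11, 43.8 ± 2.76, 49.5 ± 1.83 and 47.8 ± 6.96 CPM (SD, n = 3 each) in numbers 1 to 6, with an adjusted p of 0.00119. The ratio of Gm23105 to Pawr lay between 0.0583 and 0.139 in the 15 libraries and was 0.307 in control number 1.

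With 15 libraries, Gm24119, in the mitochondrial phosphate carrier gene Slc25a3, and Slc25a3 itself were also lowest in numbers 1 to 3. Slc25a3 then had means of 463.3, 464.6, 467.9, 521.2, 558.1 and 575.6 CPM in numbers 1 to 6. Gm24119 had means of 46.0, 44.7, 44.2, 48.6, 56.0 and 78.7 CPM. Number 1 had 2 libraries there, and number 6 was control number 6 alone (n = 1). With 18 libraries Slc25a3 had an adjusted p of 0.00879 for replicate number. The ratio of Gm24119 to Slc25a3 lay between 0.0834 and 0.137 in the 15 libraries. It was 0.142 in control number 1, 0.0640 in 10 µM number 6 and 0.0372 in 30 µM number 6. Whether a shared number marks a shared isolation or day is not given, and numbers 1 and 6 hold the 3 libraries with most unaligned reads, so that for these numbers cultures and library quality cannot be told apart.

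**Figure D5:**
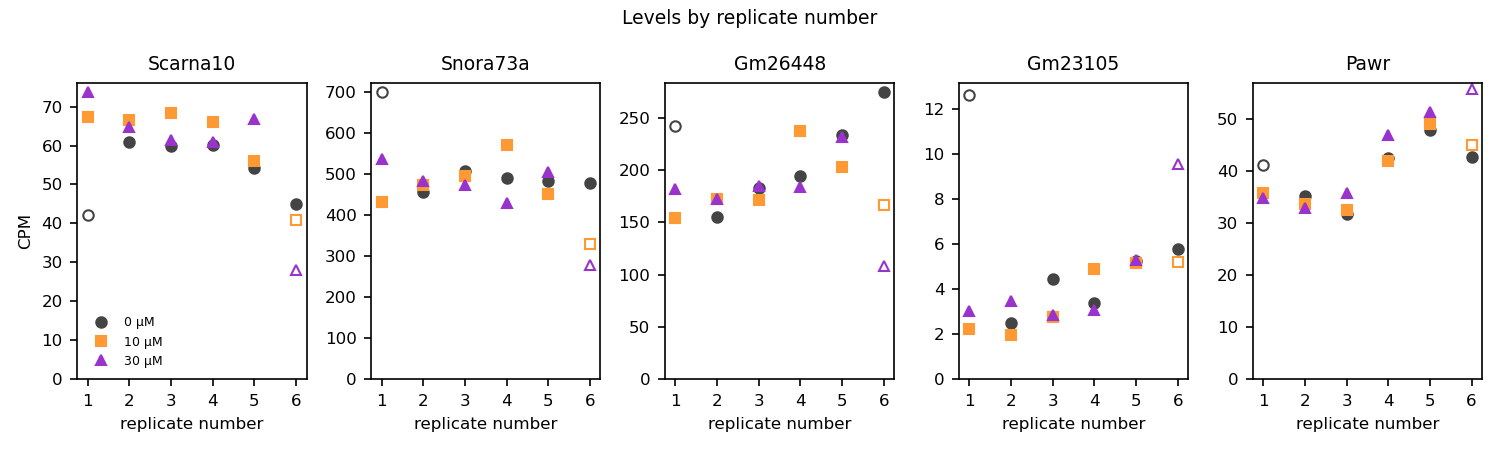
Level (vertical axis, CPM) of Scarna10, Snora73a, Gm26448, Gm23105 and Pawr, the host of Gm23105, in each library by replicate number (horizontal axis), with symbols for the doses and open symbols for the 3 libraries with most unaligned reads. Scarna10 is lowest in number 6, and Gm23105 and Pawr are higher in numbers 5 and 6 than in numbers 2 and 3.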

How the data were processed

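Total RNA libraries of MEFs were sequenced by the authors in paired ends, and the processing notes name FastQC, HISAT2, SAMtools 1.2, HTSeq and the human build GRCh38, although the identifiers are mouse. The annotation release, strand setting and overlap mode are not given in the sources used here. The deposited file holds raw counts per Ensembl gene, 1 column per library, and closing lines of uncounted reads, which were left out of totals and tests and came to between 35% and 77% of read pairs.

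Biotypes, hosts and sequences were taken from GENCODE M39 by gene identifier (51731 of 55487 matched). A host was a same-strand gene of another biotype spanning the gene wholly, and the one with most counts where there were several. The length of a host is that of all its annotated exons. Printed levels are CPM scaled by TMM, while the threshold of 1 CPM used plain totals.

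The counts were tested with edgeR 4.0.16 in R 4.3.3 (filterByExpr, TMM, robust quasi-likelihood fit over all 18 libraries, Benjamini-Hochberg adjustment over 13865 genes), which all 72 genes entered. The model for dose had dose alone, and the model for replicate number had dose and number. The steps were tested on simulated data. DESeq2 1.42.0, its size factors, library totals alone, no low-count filter, leaving out 1, 2 or 3 libraries, and a replicate block were the alternatives. Most genes were named by level in each class, by the smallest p in each comparison, and from a short list of well-known RNAs and particle proteins. Some, Snora57 among them, were named after values were seen. The genes and lists were chosen with earlier results of these data known. Only counting error and the spread between libraries enter the p-values, and at 1 CPM the shallowest library gives about 4 reads per gene.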

Additional observations from a re-analysis of the deposited data

Results flagged for a closer look

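In groups of 6 libraries, 17 of 114 groups of values held a library whose gap to its nearest neighbour exceeded Dixon's 95% critical value. The groups were 38 measures, namely 33 named genes and the summed shares, at each of the 3 doses. For genes chosen without these data, chance would give about 1 in 20 groups, here 5.7. Some of the genes were named for small p-values in these same data, so that number is no yardstick for them. The groups are also not independent, since they share libraries. Of the 17, 12 were in control number 1 and 3 in 30 µM number 6, the libraries with most unaligned reads.

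In control number 1, the highest by such a gap were Snora73a at 699.8 CPM (others 455.8 to 507.7), Snora78 at 143.6 CPM (57.2 to 69.3), Gm25835 at 131.5 CPM (31.8 to 42.3), Snord118 at 42.5 CPM (12.4 to 21.2) and Gm23262 at 45.5 CPM (7.58 to 10.9). Snord15a at 19.6 CPM (7.32 to 10.3), Snord94 at 21.2 CPM (7.23 to 10.0), Snord13 at 25.01 CPM (4.69 to 7.54) and Gm23105 at 12.6 CPM (2.48 to 5.80) were high there too. Scarna2 at 39.8 CPM (116.1 to 134.0), Gm22442 at 45.2 CPM (76.6 to 90.7) and the summed share of the Scarna genes at 0.0104% (0.0217% to 0.0245%) were low there.

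In 30 µM number 6, Scarna10 was low at 28.0 CPM (61.0 to 73.8), Gm23105 was high at 9.58 CPM (2.83 to 5.29), and the summed share of the genes with other symbols was low at 0.0403% (0.0706% to 0.0817%). Gm22442 was high in 30 µM number 5 at 103.4 CPM (76.9 to 85.4), and Snord104 was high in 10 µM number 5 at 7.61 CPM (6.13 to 6.45). The cause of these departures was not tested.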

How the results depend on the processing

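Under every alternative run, 0 of the 72 genes passed the adjusted threshold in the 4 tests of dose. Leaving out 1 library at a time gave 1 to 17 of the 72 at an unadjusted p under 0.05 at 10 µM (0.481% to 1.61% of all genes), 2 to 19 at 30 µM (1.97% to 6.97%), 0 to 2 between the doses (1.21% to 4.94%) and 2 to 12 for any difference (0.72% to 3.5%). The median log2 fold change then ran from -0.33 to -0.15 at 10 µM, from -0.37 to -0.15 at 30 µM and from -0.07 to 0.06 between the doses. Under the alternatives other than leaving out 1 library, the genes named for the smallest p-values of each contrast of doses kept their sign. Their signs in the fits without 1 library are not given here. For replicate number, 0 genes passed with 18 libraries, 1 with DESeq2 (21.6% of all genes), 2 without the 2 libraries with most unaligned reads (23.6%), 8 without the 3, 3 when control number 6 was left out too (chosen after seeing the data), and 0 to 5 when 1 library was left out, with 2 without control number 1, 1 without 30 µM number 1 and 5 without control number 6. Fbl lost its call for replicate number with library totals alone (adjusted p = 0.0834) and with no low-count filter (0.0614), and in 8 of the 18 fits that left out 1 library (0.00572 to 0.0677 over the 18).

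As a share of all read pairs, uncounted ones included, the 72 genes held 0.117% ± 0.0269 in control, 0.119% ± 0.0181 at 10 µM and 0.110% ± 0.0342 at 30 µM (SD, n = 6 each). By class and in the same order of doses this was 0.0117%, 0.0115% and 0.0117% for Snord genes, 0.0489%, 0.0496% and 0.0464% for Snora genes, 0.0120%, 0.0138% and 0.0125% for Scarna genes and 0.0444%, 0.0443% and 0.0396% for the others. The larger denominator lowers every share by construction. A threshold of 0.5 CPM would have kept 92 genes and one of 2 CPM 58, and the mean over the 15 libraries 73.

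The replicate numbers are shared by the doses. Deviations of same-numbered libraries correlated at -0.10 and -0.03 in the 2 pairs with control number 1 and between 0.10 and 0.71 in all others, and 14 of 18 libraries correlated best with their own number. The pairing was to be used where every pair exceeded 0.1 and so stayed an alternative, although the numbers other than 1 met this. With a replicate block 0 of the 72 passed, and 6, 4, 0 and 4 reached an unadjusted p under 0.05 in the 4 tests of dose, where 1.16%, 6.77%, 4.26% and 2.78% of all genes did. With the block and without the 2 libraries with most unaligned reads these counts were 2, 5, 1 and 1 (2.03%, 2.6%, 4.05% and 2.31% of all genes), again with 0 passing. Depth limits the low genes most, 27 of which were under 3 CPM.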

Other observations

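The level of a gene relative to the host taken for it shows the same libraries apart within single loci. Snora73a was between 5.40 and 6.91 times Rcc1 in the 15 libraries, 12.3 times in control number 1, 4.41 times in 10 µM number 6 and 3.08 times in 30 µM number 6. Snord17 was between 0.354 and 0.853 times Snx5 in the 15, 0.608 times in control number 1 and 1.18 times in 30 µM number 6. Scarna10 was between 0.395 and 0.648 times Ncapd2 in the 15 and 0.386, 0.360 and 0.199 times in control number 1, 10 µM number 6 and 30 µM number 6. Gm26448 was between 0.108 and 0.187 times Rpsa in the 15, 0.330 times in control number 1 and 0.0832 times in 30 µM number 6. These ratios also move where the host does. In control number 1, Rcc1 was at 56.7 CPM (71.7 to 93.0 in the 15) and Rpsa at 732 CPM (1314 to 1733). Snx5 was at 342.9 CPM there (263.1 to 311.4). In 30 µM number 6, Snx5 was at 232.2 CPM, Rpsa at 1298 CPM and Ncapd2 at 140.6 CPM (104.5 to 118.3).

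The departures of these libraries were also read by length, split at 140 bases rather than at the 120 bases used above. The part of length in them was not tested. In control number 1, 34 of 48 genes under 140 bases and 10 of 24 of 140 bases or more were above the 15, with median ratios of 2.10 and 1.46. In 30 µM number 6, 25 of the 48 and 16 of the 24 were below, with median ratios of 0.735 and 0.541.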
